A study of Mus musculus with 6 samples.

Results

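The Hox cluster genes are the homeobox transcription factor genes that lie in 4 clusters, Hoxa on chromosome 6, Hoxb on chromosome 11, Hoxc on chromosome 15 and Hoxd on chromosome 2 of the mouse. Their members on these arrays were taken as all probes whose accession belongs to a gene named Hoxa, Hoxb, Hoxc or Hoxd with a number, Hoxc13 included. This gave 44 of 41174 probes, in 53 spots, for 37 of the 39 protein-coding Hox genes that RefSeq lists on assembly GRCm38.p6. No probe matched Hoxc11 or Hoxd8, and none matched the 4 RNAs listed on the strand opposite to Hox genes. Hoxa3, Hoxa4, Hoxa13, Hoxb8, Hoxc10, Hoxd3 and Hoxd9 had 2 probes each.

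The study applied cyclosporin A or ethanol to C57/BL mice and measured gene expression in back skin 2, 4 and 7 days later. Cyclosporin A blocks the phosphatase calcineurin, suppresses the immune response and is known for increased hair growth as a side effect. Ethanol-treated skin of the same day was the control, and nothing in the labels names an allele, a transgene, an age or a sex. Total RNA was extracted with Isogen, and the 6 Agilent whole-genome arrays were hybridised in 2 colours, Cy5 for the cyclosporin A sample and Cy3 for the ethanol sample of that day. There were 2 arrays a day, described as biological replicates without saying which animals they came from, and p-values cover only the spread between these samples, which may be technical. The dyes were not swapped, and so a probe's own difference between dyes cannot be told apart from the treatment. Days 2 and 4 shared 1 slide and day 7 had its own, so that day 7 and slide cannot be told apart.

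Hox proteins bind DNA through their homeodomain, mostly together with cofactors of the Pbx, Meis and Pknox families. The order of the genes along a cluster follows the order in which they are used along the body axis, genes of low paralog number towards the head and genes of high number towards the tail. Adult dermal fibroblasts keep a Hox pattern that marks the body site they came from. Hoxc13 stands apart because it is used in the hair matrix, where it switches on hair keratin genes, and mice without it grow brittle hair that breaks at the skin surface.

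By the scanner software's flag for signal well above background, 15 of the 37 Hox genes passed in every sample and 8 in none. The software sets this flag for each spot in each channel. A gene was counted where any of its probes passed on most of its spots. In both channels of all 6 arrays this held for 15 of the 37 genes, namely Hoxa3, Hoxa5, Hoxa7, Hoxa9, Hoxa10, Hoxb2, Hoxb5, Hoxb6, Hoxb7, Hoxb9, Hoxc6, Hoxc9, Hoxd4, Hoxd9 and Hoxd10. By cluster these were 5 of 11 Hoxa genes, 5 of 10 Hoxb genes, 2 of 8 Hoxc genes and 3 of 8 Hoxd genes.

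Another set of genes was above background in the cyclosporin A channel of all 6 arrays but in fewer ethanol channels. The ethanol channel passed on 5 arrays for Hoxb4, on 4 for Hoxb3, on 3 for Hoxa2 and Hoxc4, on 1 for Hoxa4 and Hoxa6, and on 0 for Hoxc13. Hoxb8, Hoxb13, Hoxc5, Hoxc8, Hoxc10 and Hoxd12 were above background on fewer arrays of the cyclosporin A channel, between 1 and 5. Hoxa11, Hoxa13, Hoxb1, Hoxc12, Hoxd1, Hoxd3, Hoxd11 and Hoxd13 were not well above background on any array.

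The middle of the clusters was the best covered stretch. All 14 genes of paralog numbers 4 to 8 were above background on at least 1 array, against 5 of 8 genes of numbers 1 to 3 and 10 of 15 of numbers 9 to 13. Among the 15 genes of numbers 9 to 13, the 5 without signal were Hoxa11, Hoxa13, Hoxc12, Hoxd11 and Hoxd13. Hoxb13 passed in the cyclosporin A channel of 1 array and Hoxd12 on 1 array in each channel. By this flag, Hoxc13 was thus the only gene of numbers 11 to 13 above background on more than 1 array of a channel. Because a probe's brightness also depends on its sequence, signal was used across genes only to choose which are given on every array, and no gene is said to be more expressed than another.

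The channels did not detect equally well. Between 16 and 21 Hox genes per array passed in ethanol, and 25 to 28 passed in cyclosporin A. The same held for all probes, of which 43.5% to 56.4% passed in the ethanol channel and 59.9% to 68.8% in the cyclosporin A channel. The dim end of the Cy3 channel was high: the median negative control spot read 117.5 to 198.5 there, over a local background of 58 to 61. In Cy5 the negative controls read 66 to 81.5 over a local background of 53 to 56. A gene seen above background in cyclosporin A alone is therefore no evidence by itself of a treatment effect. When a gene was counted above the 95th percentile of the negative controls instead, 19 genes passed in both channels of all 6 arrays. Some genes without the flag then passed, such as Hoxd3 in 6 ethanol and 5 cyclosporin A channels and Hoxd1 in 5 and 3. In the cyclosporin A channel Hoxd12 then passed on 4 arrays, Hoxb13 on 3 and Hoxd11 on 2, so that which genes lack signal depends on the rule.

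**Figure D1:**
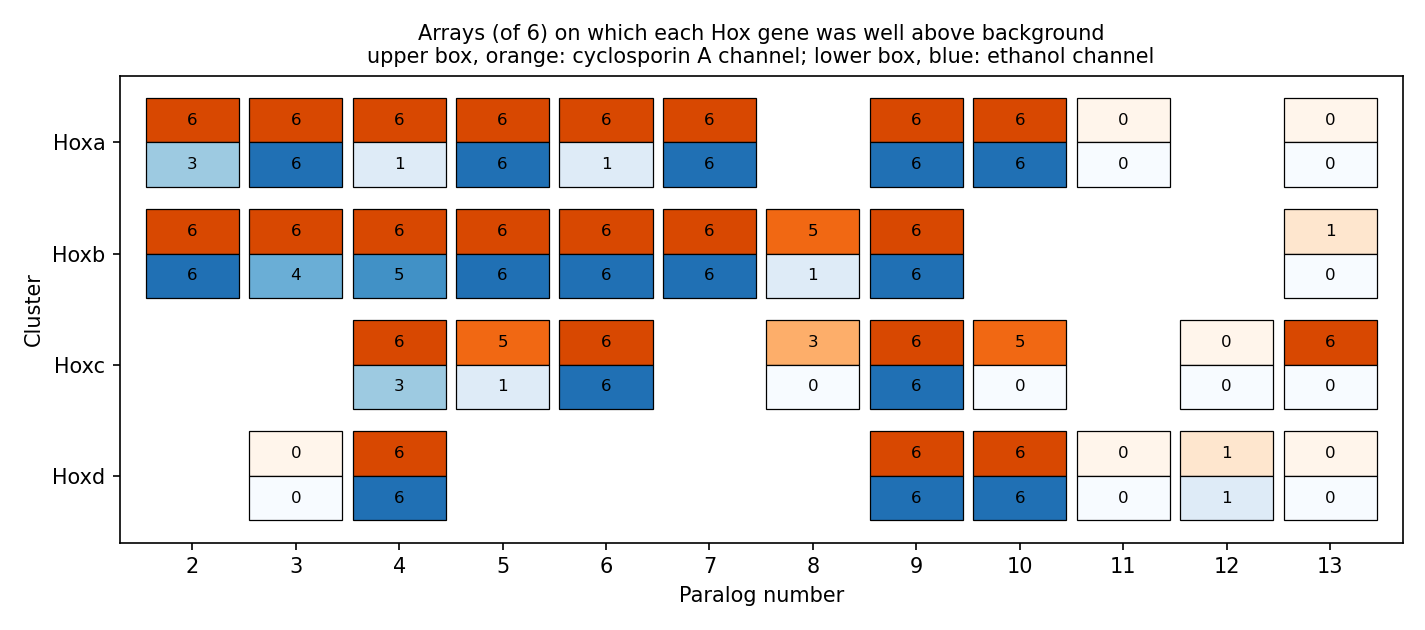
Number of arrays, of 6, on which each Hox gene of paralog numbers 2 to 13 with a probe was well above background, by cluster (rows) and paralog number (columns), with the cyclosporin A channel in the upper box and the ethanol channel in the lower box. Full boxes gather at numbers 2 to 10, and Hoxc13 reads 6 above 0.

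Of the 37 genes, 27 passed the filter for testing, which asked that on at least 1 day both arrays showed the probe well above background in 1 channel or the other. The filter removed Hoxa11, Hoxa13, Hoxb1, Hoxb13, Hoxc12, Hoxd1, Hoxd3, Hoxd11, Hoxd12 and Hoxd13. For a gene with 2 probes that passed, the brighter one was used. All ratios below are log2 of cyclosporin A over ethanol after loess normalisation within each array, with n = 2 arrays a day. Standard errors (SE) and adjusted p-values come from limma, fitted on all 22746 genes tested with the spread shared over days and Benjamini-Hochberg adjustment, and a gene was called at an adjusted p under 0.05.

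Few Hox genes differed between cyclosporin A and ethanol skin. At day 2 limma called 0 of the 27, where 0% of all genes were called, and 2 (7.41%) had an unadjusted p under 0.05 against 9.68% of all genes. At day 4 it called 0 of 27, where 0.0044% of all genes were called, and 6 (22.2%) had an unadjusted p under 0.05 against 15% of all genes. At day 7 it called 1 of 27, Hoxc13, against a background of 2.99% (2.35% higher, 0.642% lower). On the average over days it called 2 of 27, Hoxc13 and Hoxa4, against a background of 13.1% (9.69% higher, 3.41% lower). A called share of 2 in 27 is below that background and is not a result about the Hox genes as a set.

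The median Hox ratio was 0.00 at day 2, 0.19 at day 4 and 0.02 at day 7, next to medians of 0.04, 0.04 and 0.03 over all genes tested. Ratios ran from -0.55 to 0.46 at day 2, from -0.58 to 0.72 at day 4 and from -0.63 to 0.93 at day 7. More Hox genes were above 0 at day 4, 20 of 27 or 74.1%, than at day 2 or day 7, 15 of 27 on each. Over all genes 56.8% were above 0 at day 4, and no Hox ratio of that day passed the test. The difference between days called 0 Hox genes for day 4 minus day 2, day 7 minus day 4 and day 7 minus day 2, where 0%, 0.202% and 0.264% of all genes were called. At an unadjusted p under 0.05 they held 0, 1 and 0 Hox genes, against 2.24%, 4.47% and 6.13% of all genes.

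Few Hox genes kept the sign of their ratio on all 6 arrays. Of the 27, 11.1% were above 0 on every array, Hoxa4 and Hoxc13 among them, against 15.7% of all genes. Hoxb4 and Hoxd9 were below 0 on every array, 7.41% of the 27 against 8.14% of all genes. Both shares lie near or under the background.

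**Figure D2:**
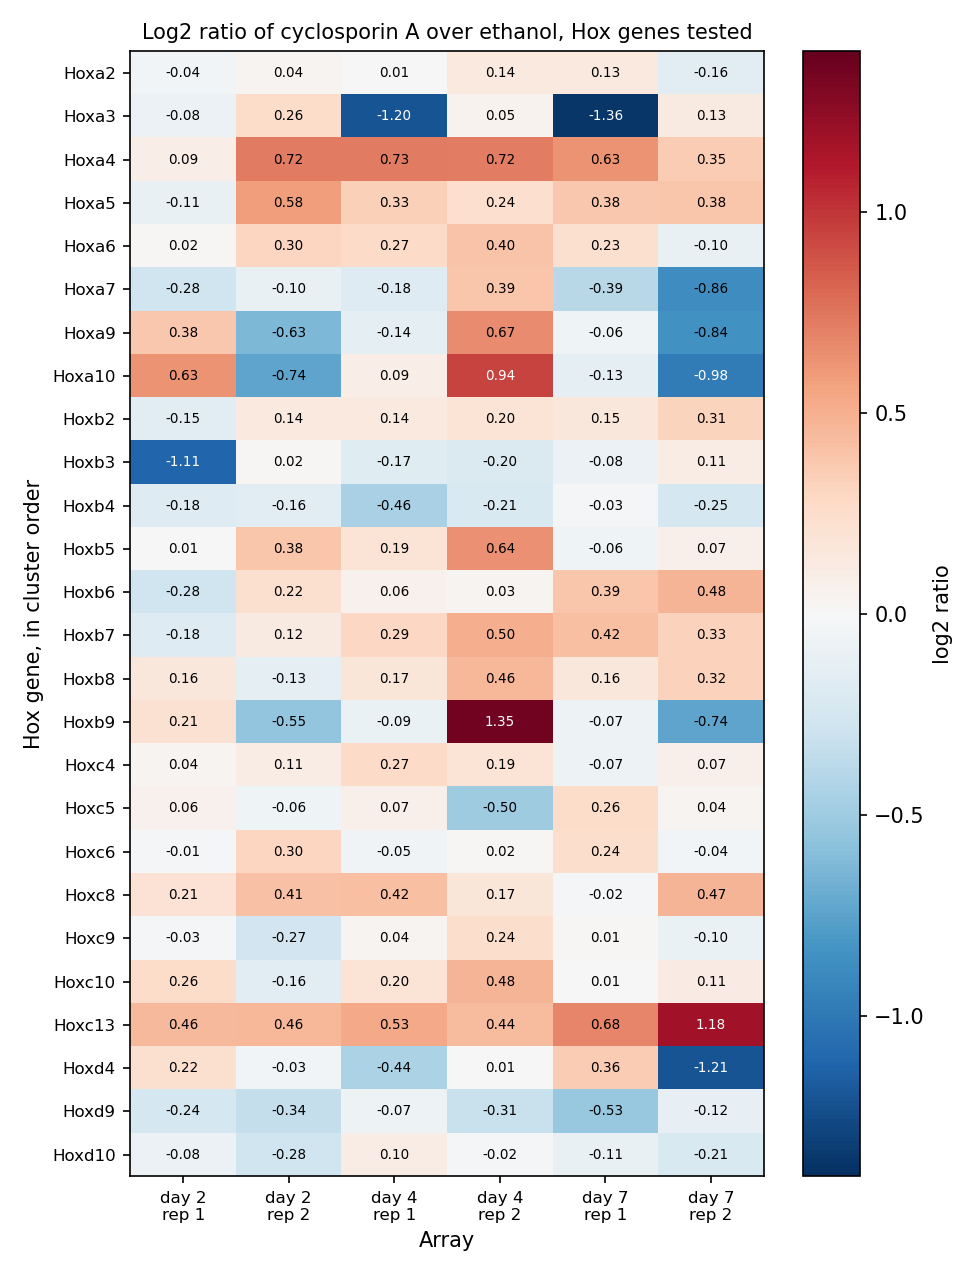
Log2 ratio of cyclosporin A over ethanol for the tested Hox genes of paralog numbers 2 to 13 (rows, in cluster order) on each of the 6 arrays (columns), red above 0 and blue below. The Hoxc13 row is red throughout with its highest value of 1.18 on day 7 replicate 2, and the deepest colours elsewhere mostly stand on single arrays, such as 1.35 for Hoxb9 on day 4 replicate 2.

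Hoxc13, the hair matrix regulator, was the member called at a single day. Its ratio was 0.46 on both day 2 arrays, 0.53 and 0.44 on the day 4 arrays, and 0.68 and 1.18 on the day 7 arrays. Every array was above 0, and both day 7 arrays were above the 4 earlier ones. At day 7 the mean was 0.93 (SE 0.14, n = 2 arrays), at least 1.91-fold higher in cyclosporin A skin, with a limma adjusted p of 0.0268. Hoxc13 entered the test through its cyclosporin A channel alone, the group in which it was higher. The fold is given as "at least" because the ethanol channel was not well above background on any array. It bounds the detection limit alone: the floor was the probe's own signal, and other settings gave lower ratios. Without a dye swap it is open to a difference between dyes. The average over days was 0.62 (SE 0.08, n = 6 arrays), at least 1.54-fold higher, with a limma adjusted p of 0.0127.

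In the separate channels, normalised so that their intensities can be set across arrays, the ethanol level of Hoxc13 was 6.35, 6.33, 6.48, 6.53, 6.65 and 6.62 on the log2 scale in array order. The cyclosporin A level was 6.81 and 6.79 at day 2, 7.01 and 6.96 at day 4, and 7.33 and 7.80 at day 7. The ranges of the channels did not overlap at any day, but the ethanol channel read near the floor and the probe was kept through its cyclosporin A channel alone. The gap between the channels is therefore no further support for the ratio. The cyclosporin A level of day 7 exceeded that of day 2 by 0.76 (SE 0.19) with a limma adjusted p of 0.137, and the ratio of day 7 exceeded that of day 2 with an adjusted p of 0.820, so that neither difference between days passed.

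The Hoxc13 signal was low, with a raw Cy5 median of 105.5 to 212 where negative controls read 66 to 81.5. Its size depended on how background was treated: the day 7 ratio was 1.69 on the scanner software's processed signals, with a limma adjusted p of 0.0504. With scale normalisation between arrays it was 0.87 with an adjusted p of 0.0552. When each array was centred on its median in place of loess, the average was 0.29 with an adjusted p of 0.0584, next to a median of 0.28 over all genes. Leaving out an array ended the day 7 call for 4 of the 6 arrays. The limma adjusted p was 0.0740 without either day 4 array, 0.0548 without day 7 replicate 1 (ratio 1.18) and 0.153 without day 7 replicate 2 (ratio 0.68). The call on the average over days was lost without either day 4 array, with adjusted p-values of 0.0628 and 0.0761, and remained without each of the other 4.

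Hoxa4, a gene of the front part of the Hoxa cluster, was the other member called, on the average over days alone. Its ratios in array order were 0.09, 0.72, 0.73, 0.72, 0.63 and 0.35. All were above 0, and the day 2 arrays lay farthest apart. The average was 0.54 (SE 0.10, n = 6 arrays), at least 1.46-fold higher in cyclosporin A skin, with a limma adjusted p of 0.0220. The ethanol channel of this probe was not well above background on any array, so that it entered the test through the group in which it was higher. The second Hoxa4 probe, which failed the filter, gave -0.06, -0.36, -0.06, -0.22, -0.57 and -0.14, below 0 on all 6 arrays. The probes thus disagree in direction: taking the second one, as happens with no filter on dim probes, gave an average of -0.24 with an adjusted p of 0.0918. The call was also lost when any day 4 or day 7 array was left out, with limma adjusted p-values of 0.0587 to 0.102. It was lost on the processed signals too (0.998, adjusted p 0.0643) and under median centring (0.25, adjusted p 0.0688).

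**Figure D3:**
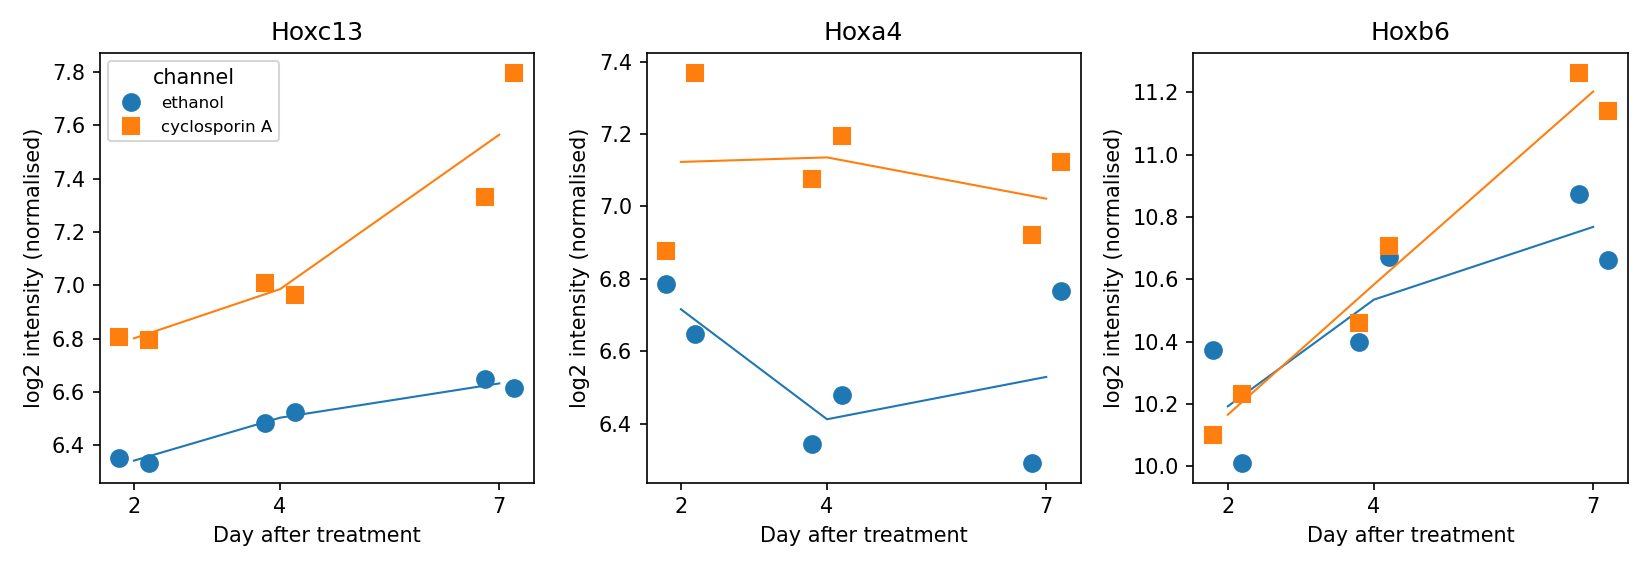
Normalised log2 intensity of Hoxc13, Hoxa4 and Hoxb6 by day in the ethanol channel (blue circles) and the cyclosporin A channel (orange squares), with a point for each array and lines through the means of the 2 arrays of a day; the vertical axes differ. Hoxc13 and Hoxa4 stay higher in cyclosporin A at each day, Hoxa4 with both channels close on day 2 replicate 1, while Hoxb6 climbs in both channels to 11.26 and 11.14 in cyclosporin A at day 7.

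Hoxb6 and Hoxb7 were the Hoxb genes chosen for their signal. Hoxb6 was measured well above background in both channels of all arrays, and its ratios were -0.28 and 0.22 at day 2, 0.06 and 0.03 at day 4, and 0.39 and 0.48 at day 7. The day 7 arrays were the highest, but the mean of 0.43 (SE 0.14) did not pass, with a limma adjusted p of 0.153. Its cyclosporin A level, however, was 10.10 and 10.23 at day 2, 10.46 and 10.71 at day 4, and 11.26 and 11.14 at day 7. Levels of the 3 days did not overlap, and day 7 exceeded day 2 by 1.04 (SE 0.17), 2.05-fold, with a limma adjusted p of 0.0349.

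Hoxb6 was the 1 of 27 Hox genes called in that contrast, where 0.989% of all genes were called, and 7 (25.9%) had an unadjusted p under 0.05 against 13.8% of all genes. The ethanol level of Hoxb6 was 10.38, 10.01, 10.40, 10.67, 10.87 and 10.66, and its day 7 exceeded day 2 by 0.58 (SE 0.18) with a limma adjusted p of 0.333. The difference between days was therefore not shown to be particular to cyclosporin A: the ratio of day 7 exceeded that of day 2 by 0.46 (SE 0.20) with an adjusted p of 0.829. The Hoxb6 call was lost when any of the 4 arrays of days 2 and 4 was left out. Between day 2 and day 4 limma called 0 of the 27 in the cyclosporin A channel, where 0% of all genes were called, and 2 (7.41%) had an unadjusted p under 0.05 against 1.45% of all genes.

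In the ethanol channel limma called 0 of 27 for day 4 minus day 2 and 0 of 27 for day 7 minus day 2, where 0.0044% and 0.0352% of all genes were called. At an unadjusted p under 0.05 there were 1 (3.70%) and 4 (14.8%), against 8.79% and 11.3% of all genes. The lowest adjusted p there belonged to Hoxd4, at 0.460 and 0.312. Hoxb7 had ratios of -0.18, 0.12, 0.29, 0.50, 0.42 and 0.33, above 0 on all arrays but day 2 replicate 1. Its average of 0.25 (SE 0.07) did not pass, with a limma adjusted p of 0.0696. Under median centring, which put the median of all genes at 0.39, 0.27 and 0.17 at days 2, 4 and 7, Hoxb7 was 0.63, 0.93 and 0.86 and Hoxb6 was 0.60, 0.58 and 0.94. All 6 of these ratios passed limma's test there, with the highest adjusted p 0.0489.

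The Hoxa genes chosen for their signal were Hoxa7 and Hoxa9. Hoxa7 had ratios of -0.28, -0.10, -0.18, 0.39, -0.39 and -0.86, below 0 on 5 of 6 arrays and above 0 on day 4 replicate 2. Its day 7 mean was -0.63 (SE 0.18) with a limma adjusted p of 0.120, and under median centring its average turned from -0.24 to 0.46, above that setting's median of 0.28 over all genes. Hoxa9, best known from blood stem cells and leukaemia and part of the limb and trunk pattern, had 0.38 and -0.63 at day 2, -0.14 and 0.67 at day 4, and -0.06 and -0.84 at day 7. The arrays of a day thus stood on opposite sides of 0 at days 2 and 4. Its neighbour Hoxa10, named after its values were seen, had 0.63 and -0.74 at day 2, 0.09 and 0.94 at day 4, and -0.13 and -0.98 at day 7.

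Hoxb9, also named after its values were seen, had 0.21, -0.55, -0.09, 1.35, -0.07 and -0.74. It was high and low on the same arrays as Hoxa9 and Hoxa10. None of the 3 passed at any day, with limma adjusted p-values between 0.406 and 0.979. Over the 6 arrays the Pearson correlation of the ratio was 0.990 between Hoxa9 and Hoxa10, 0.931 between Hoxa9 and Hoxb9, and 0.917 between Hoxa10 and Hoxb9. These are descriptions over 6 points that share arrays, slides and dyes. Other Hox pairs were as close, such as Hoxb2 and Hoxb3 at 0.938 and Hoxa5 and Hoxb3 at 0.922. Among 13355 genes with a symbol, Hoxa10 was the one whose ratios followed those of Hoxa9 most closely, ahead of Tnp1 at 0.976, Ccl21c at 0.969 and Cyp4f16 at 0.966. The comparison with Hoxa9 was set up after its values were seen.

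In each channel alone, levels were also compared over the 6 arrays. In the ethanol channel the correlation was 0.838 between Hoxa9 and Hoxa10, 0.908 between Hoxa9 and Hoxb9, and 0.972 between Hoxa10 and Hoxb9. In the cyclosporin A channel these values were 0.983, 0.931 and 0.872. Hoxa7 was as close in that channel, at 0.979 with Hoxb9, 0.889 with Hoxa9 and 0.830 with Hoxa10, and less so in ethanol, at 0.657, 0.484 and 0.633. The ethanol level of Hoxa10 was 7.94, 8.55, 8.46, 7.86, 8.69 and 8.31, and its cyclosporin A level was 8.57, 7.82, 8.56, 8.80, 8.56 and 7.33. Cyclosporin A samples of the same day thus stood as far apart as 8.56 and 7.33 at day 7, and the ranges of the channels overlapped.

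The other genes of numbers 9 and 10 moved less. Hoxc9 ran from -0.27 to 0.24, Hoxd10 from -0.28 to 0.10 and Hoxc10 from -0.16 to 0.48 over the 6 arrays. The array pattern was not particular to Hoxa9, Hoxa10 and Hoxb9. The correlation of the ratio with Hoxa10 was 0.809 for Hoxc10, 0.793 for Hoxc9, 0.680 for Hoxd10 and -0.111 for Hoxd9. Over all 8 tested genes of numbers 9 to 13, the median ratio was 0.23, -0.31, 0.07, 0.46, -0.06 and -0.17 in array order. The sign differed between the arrays of day 2.

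**Figure D4:**
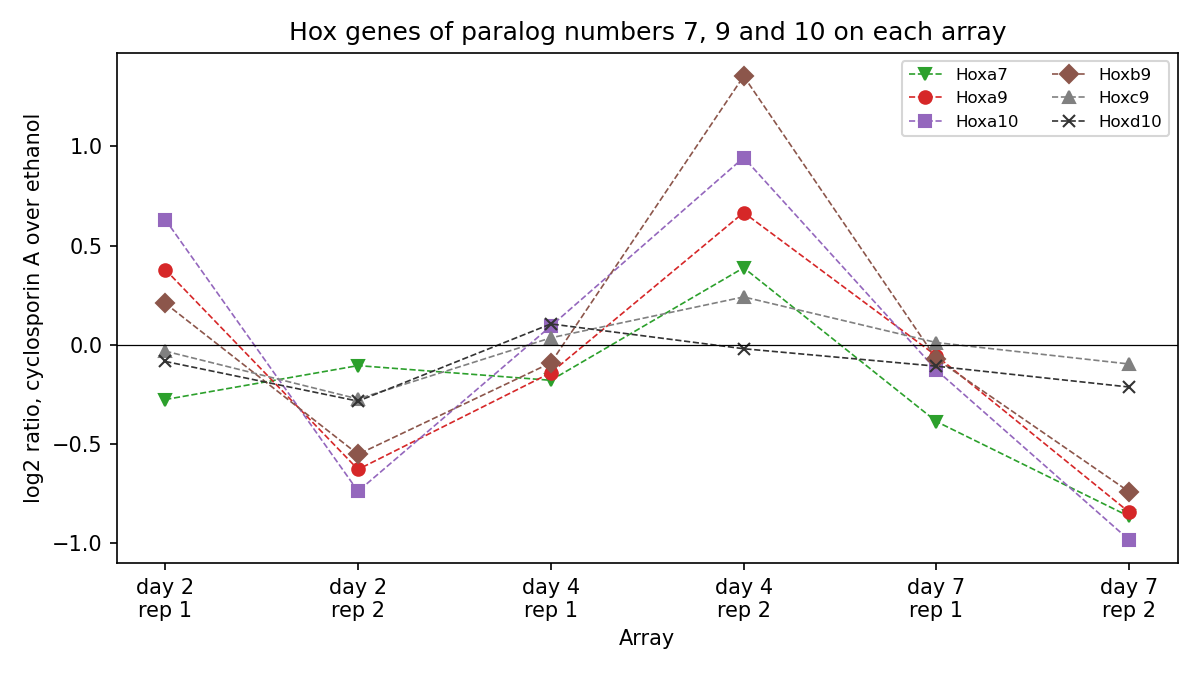
Log2 ratio of cyclosporin A over ethanol on each array for Hoxa7, Hoxa9, Hoxa10, Hoxb9, Hoxc9 and Hoxd10; dashed lines join the values of a gene and carry no order, since replicates have none. Hoxa9, Hoxa10 and Hoxb9 are highest on day 4 replicate 2 and lowest on day 7 replicate 2, while Hoxc9 and Hoxd10 stay between -0.28 and 0.24.

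Because Hoxa9 and Hoxa10 are neighbours whose ratios followed each other, their start regions are shown with that of Hoxa7, the next tested gene of the cluster, whose correlation with Hoxa9 was 0.725 for the ratio and 0.889 for the cyclosporin A level. Sequences are RefSeq's on assembly GRCm38.p6, from 250 bases before to 50 bases after the start, 5′ to 3′ on the gene's strand, which is the minus strand of chromosome 6 for all of them. Hoxa7 lies at chr6:52218524-52218823, Hoxa9 at chr6:52227321-52227620, and the 2 starts of Hoxa10 at chr6:52240805-52241104 and chr6:52234890-52235189. Capitals mark matches on either strand to TTTATG, bound by the Cdx factors that set the Hox pattern, to TGATTNAT, the joint site of Hox and Pbx proteins, or to TATAAA, the TATA box.
Hoxa7: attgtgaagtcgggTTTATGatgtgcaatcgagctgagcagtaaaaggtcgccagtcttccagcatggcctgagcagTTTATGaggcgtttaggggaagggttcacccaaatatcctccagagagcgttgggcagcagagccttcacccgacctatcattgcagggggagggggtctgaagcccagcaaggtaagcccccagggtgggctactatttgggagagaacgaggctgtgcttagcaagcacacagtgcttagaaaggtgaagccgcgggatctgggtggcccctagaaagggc
Hoxa9: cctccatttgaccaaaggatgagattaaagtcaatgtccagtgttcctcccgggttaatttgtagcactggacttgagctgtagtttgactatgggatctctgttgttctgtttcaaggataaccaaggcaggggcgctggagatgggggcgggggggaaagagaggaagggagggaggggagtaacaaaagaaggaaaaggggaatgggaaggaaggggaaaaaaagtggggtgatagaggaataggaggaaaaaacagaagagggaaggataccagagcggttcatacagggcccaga
Hoxa10, upstream start: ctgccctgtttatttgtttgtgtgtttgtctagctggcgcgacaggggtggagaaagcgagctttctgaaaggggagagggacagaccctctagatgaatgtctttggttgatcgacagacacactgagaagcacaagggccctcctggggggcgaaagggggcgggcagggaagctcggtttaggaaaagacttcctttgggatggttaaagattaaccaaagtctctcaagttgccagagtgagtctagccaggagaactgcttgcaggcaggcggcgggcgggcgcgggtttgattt
Hoxa10, downstream start: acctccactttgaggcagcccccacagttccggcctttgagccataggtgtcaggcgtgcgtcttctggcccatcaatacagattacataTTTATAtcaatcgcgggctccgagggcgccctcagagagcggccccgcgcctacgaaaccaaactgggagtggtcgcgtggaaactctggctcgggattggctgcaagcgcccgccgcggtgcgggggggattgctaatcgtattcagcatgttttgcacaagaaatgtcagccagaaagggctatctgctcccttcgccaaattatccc

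The Hoxa7 window held 2 TTTATG matches, at bases 15 and 78. The Hoxa9 window and the upstream Hoxa10 window held 0 matches to any of the 3, and the downstream Hoxa10 window held 1 TATAAA match at base 91, read on the other strand. Of 24 windows of the 22 Hox genes in the table, 5 (20.8%) held TTTATG, 2 (8.33%) held TGATTNAT and 4 (16.7%) held TATAAA. Among all 32851 windows of the same length these shares were 11.9%, 3.22% and 13.6%. The table has no window for Hoxb9 or Hoxc13. A match describes letters and not binding, and these arrays measured no factor there.

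Among the Hoxc genes chosen for their signal, Hoxc9 had ratios of -0.03, -0.27, 0.04, 0.24, 0.01 and -0.10, and Hoxc6 had -0.01, 0.30, -0.05, 0.02, 0.24 and -0.04. Both lay on either side of 0, with limma adjusted p-values of 0.878 and 0.531 on the average over days. Under median centring their averages were 0.55 and 0.56, and both passed. Among the Hoxd genes, Hoxd4 had 0.22 and -0.03 at day 2, -0.44 and 0.01 at day 4, and 0.36 and -1.21 at day 7. Its arrays of day 7 stood on opposite sides of 0, and the day 7 mean of -0.43 (SE 0.33) became 0.36 or -1.21 when either array was left out.

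Hoxd9 was below 0 on every array, as was Hoxb4 (-0.46 to -0.03). The Hoxd9 ratios were -0.24, -0.34, -0.07, -0.31, -0.53 and -0.12, and its second probe gave -0.26, -0.60, -0.11, -0.32, -0.36 and -0.62. Both probes were below 0 on all 6 arrays and well above background in both channels of each. The average was -0.27 (SE 0.08) with a limma adjusted p of 0.0727, which did not pass. The same average passed on the processed signals, at -0.53 with an adjusted p of 0.0454, and for the second probe tested on its own, at -0.38 with an adjusted p of 0.0306.

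Several Hox genes varied widely between the arrays of a day. The median distance between replicate ratios was 0.29 at day 2, 0.21 at day 4 and 0.28 at day 7 over the 27 genes, next to 0.22, 0.19 and 0.22 over all genes tested. The distance that 95% of all genes stayed under was 0.89, 0.68 and 0.80 at the 3 days. Beyond it lay 3 Hox genes at day 2 (Hoxa9, Hoxa10 and Hoxb3), 4 at day 4 (Hoxa3, Hoxa9, Hoxa10 and Hoxb9) and 3 at day 7 (Hoxa3, Hoxa10 and Hoxd4). These are 11.1%, 14.8% and 11.1% of the 27. Hoxa10 was on the list at all 3 days.

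Hoxa3 and Hoxb3, named after their values were seen, stood apart on arrays with a high ethanol reading. Hoxa3 had ratios of -0.08, 0.26, -1.20, 0.05, -1.36 and 0.13, and its ethanol level was 8.81 and 9.38 on the low arrays against 7.28 to 7.70 on the others. Its second probe gave -0.25 to 0.07 over the 6 arrays, with its lowest ratio and highest ethanol level (7.28) on day 7 replicate 1. The ethanol channel of that probe was not well above background on any array, so that it can hardly tell whether the readings of the first probe hold. Hoxb3 had -1.11 on day 2 replicate 1, where its ethanol level was 8.43, and -0.20 to 0.11 on the other arrays, where that level was 7.05 to 7.78. The Hoxb1 probe was spotted 10 times on each array, with 1 spot above background in Cy5 on day 2 replicate 1 and 0 elsewhere. Its spots had an SD of 0.09 to 0.18 within an array, which covers technical spread at low signal and not the spread between samples.

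**Figure D5:**
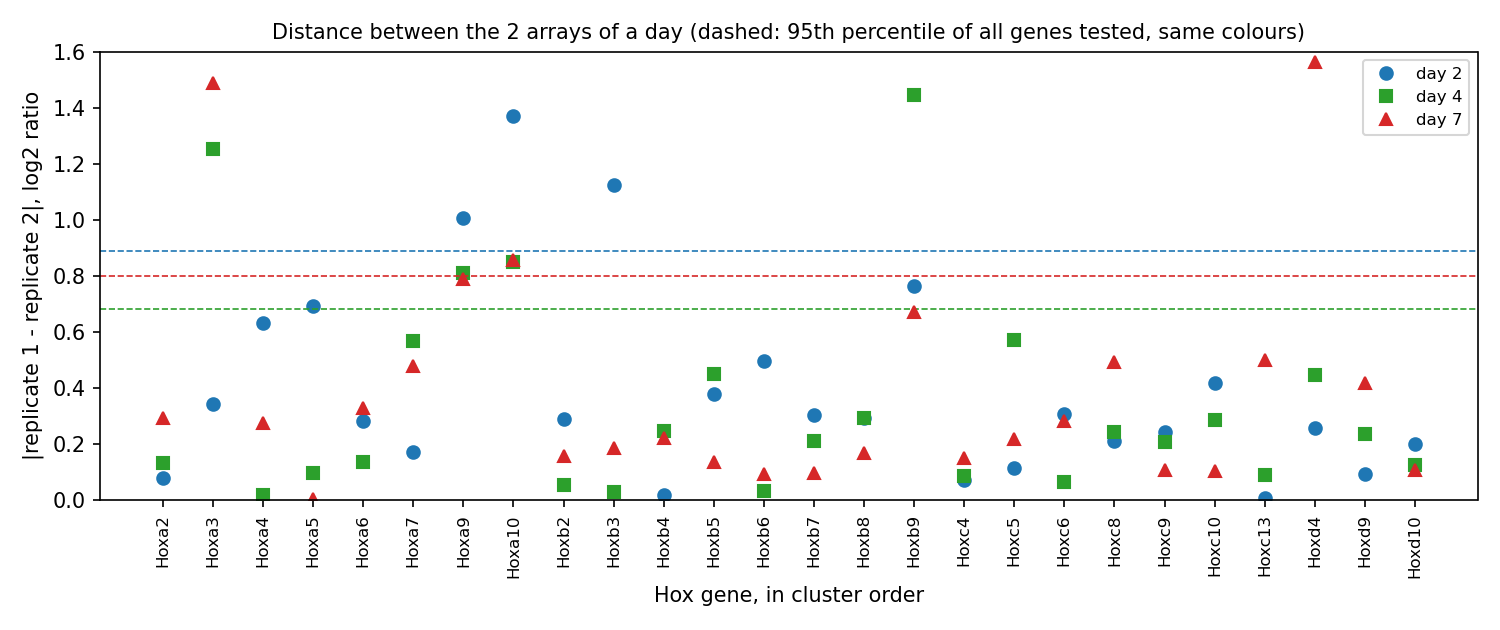
Absolute distance between the log2 ratios of the 2 arrays of a day for the tested Hox genes of paralog numbers 2 to 13, in cluster order, with day 2 in blue circles, day 4 in green squares and day 7 in red triangles; dashed lines of the same colours mark the 95th percentile of all genes tested. Hoxa10 lies above the line of each day, and Hoxc13 stays under 0.5.

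The genes that Hox proteins work with were read from lists. Of the 9 cofactors of the Pbx, Meis and Pknox families, all were tested and limma called 0 at day 7, with 2 at an unadjusted p under 0.05 and a median ratio of 0.14 against 0.03 over all genes. Of the 18 chromatin regulators that keep Hox genes off or on, such as the Polycomb and Mll complexes, 17 were tested and 0 were called at day 7, with 3 at an unadjusted p under 0.05 and a median of 0.10. Of 14 inducers and antagonists, 9 were tested, among them the retinoic acid receptors Rara, Rarb and Rarg and enzymes that make or break down retinoic acid, but not the Cdx factors. Of these 9, 0 were called at day 7, with 1 at an unadjusted p under 0.05 and a median of 0.01. Over all genes, limma called 2.99% at day 7, and 22.1% had an unadjusted p under 0.05. Having 0 calls in lists this short therefore does not show that these genes were unchanged.

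Among other homeobox genes, 4 were higher at day 7. Of 22 such genes of skin and follicle, 21 were tested, and limma called 4 higher and 0 lower at day 7, against 2.35% and 0.642% of all genes, with a median of 0.20. Msx2, a regulator of hair shaft differentiation, was 2.39 and 2.82 on the day 7 arrays, a mean of 2.60 (SE 0.14), 6.08-fold, with a limma adjusted p of 0.000385. Its ethanol channel was well above background on 1 of the 2 day 7 arrays, as was that of Dlx3. Its earlier arrays read 0.32 to 1.09, all below day 7. Dlx2 was 1.51 and 3.11, at least 4.97-fold with an adjusted p of 0.0221, Msx1 was 0.98 and 1.39 with an adjusted p of 0.0139, and Dlx3, a hair matrix regulator, was 0.85 and 1.42 with an adjusted p of 0.0227. Msx2, Dlx2 and Dlx3 entered the test through their cyclosporin A channel alone, the group in which they were higher. The split into higher and lower is therefore no support for a direction. Whether the Hox ratios differ from those of these homeobox genes was not tested.

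Most tested genes linked to Hoxc13 in the follicle were higher at day 7. Of 13 on the list, which holds Foxn1, hair keratins and other hair matrix genes, 9 had a probe and 8 were tested, and limma called 6 higher and 0 lower, against 2.35% and 0.642% of all genes, with a median of 3.81. The other 2 were transcription factors, Foxn1 at 0.34 and -0.83 (mean -0.24, limma adjusted p 0.616) and Foxq1 at -0.54 and -0.02 (mean -0.28, limma adjusted p 0.323). Krt33a, a hair keratin, was 6.38 and 5.66 on the day 7 arrays and 0.08 to 1.12 on the earlier ones, at least 65.0-fold higher at day 7 with a limma adjusted p of 0.000163. Krt34 was 4.94 and 4.00, at least 22.1-fold with an adjusted p of 0.000231. Padi3, which modifies hair proteins, was 4.58 and 4.25, 21.4-fold with an adjusted p of 9.53e-05, and Krt35 was 4.00 and 3.99, 15.9-fold with an adjusted p of 9.53e-05. These 4 genes were picked among those called by the size of their day 7 ratio, so that day 7 arrays lying above the earlier ones are no further support. The list of genes linked to Hoxc13 was chosen with the hair keratin results of these samples known and is not independent evidence of its direction. The hair keratins Krt31, Krt33a, Krt34 and Krt86 entered the test through their cyclosporin A channel alone, the group in which they were higher. Such genes could hardly have been called lower, so that the split into higher and lower is no support.

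The tissue label was checked against markers of the cells that skin holds. All 8 keratinocyte, all 8 dermal fibroblast and all 11 skeletal muscle markers tested were above background in both channels of all 6 arrays. At day 7 limma called 0 of the 8 keratinocyte markers (median -0.36, 2 at an unadjusted p under 0.05), 0 of the 8 fibroblast markers (median -0.04, 0 at an unadjusted p under 0.05) and 3 of the 11 muscle markers, all lower (median -0.49), where 0.642% of all genes were called lower. The calls were 0 of 8 for adipocytes (median 0.34), 0 of 7 for endothelium (median -0.13), 0 of 7 for T cells (median -0.26) and 0 of 6 for macrophages (median -0.60), with 3, 1, 2 and 2 at an unadjusted p under 0.05. Over all genes, limma called 2.99% at day 7 and 22.1% had an unadjusted p under 0.05, so that 0 calls in lists this short do not show a cell type unchanged. In whole skin, fewer cells of a type and less RNA per cell cannot be told apart.

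The fibroblast median over 8 genes was 0.68, -0.06, -0.14, 0.01, -0.16 and -0.04 in array order, highest on day 2 replicate 1. The muscle median over 11 genes was -0.24, 0.11, -0.31, -0.86, -0.20 and -0.78, lowest on day 4 replicate 2 and day 7 replicate 2. Hoxa9, Hoxa10 and Hoxb9 had their highest ratio on the first of those arrays and their lowest on the second. The mean fibroblast level ran from 14.14 to 14.72 in the ethanol channel and from 14.30 to 14.76 in the cyclosporin A channel, and the mean muscle level from 14.90 to 15.62 and from 14.22 to 15.15. The part of these cells in any Hox ratio was not tested.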

How the data were processed

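The authors deposited 1 scanner file per array. Per the submitters' processing notes the software was Agilent Feature Extraction, version 9.1. These files hold median spot intensity and local background per channel, processed intensity and flags for spots above background, per the file headers. The deposited series values are log10 ratios, Cy5 over Cy3, and differed by 0 from the ratios inside the scanner files. The genome build of the array design is not given in the sources used here.

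From the median intensities, ratios were made in R 4.3.3, with data.table (1.17.8) for reading and limma (3.58.1) for the steps that follow: normexp with offset 50, loess within arrays, 1639 control spots of 45018 given weight 0, 15 to 126 outlier spots per array left out, and 0 spots saturated. Averaging the spots gave 41174 probes. After the filter 27929 were left, and the brightest per gene gave 22746 genes, 13471 with a symbol and 9275 without. Names came from RefSeq (GRCm38.p6), 22951 probes by accession and 67 by synonym, and 18156 had none. Channel levels used Aquantile normalization. The limma fit had 1 mean per day, 3 residual and 3.763 prior degrees of freedom and a prior SD of 0.199. "At least" folds set the bright group against a floor, the dim probe's own signal or the lowest signal above background on that array, whichever is higher. For Hoxc13, Hoxa4, Krt33a, Krt34 and Dlx2 it was the probe's own signal, so that these folds are those of the mean ratio.

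With 2 arrays a day, their number limits the precision. Members, lists and alternatives were chosen with earlier results of these data known. Values are given for Hox genes called, for Hoxc13, and for the 2 genes of each cluster with the highest signal, plus Hoxa10, Hoxb9, Hoxa3 and Hoxb3, picked after their values were seen. From other lists, up to 4 called genes by the size of the day 7 ratio are named. Deviations of same-numbered arrays correlated at 0.007 between days 2 and 4, -0.278 between days 2 and 7 and -0.022 between days 4 and 7. The labels do not say that a number is shared between days, so the main fit used no pairing. Whether samples were paired cannot be told from these values. Some items are not reported here.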

Additional observations from a re-analysis of the deposited data

Results flagged for a closer look

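The ratio differed between days in 5 genes named above, by a limma test of day 7 minus day 2. The difference was 5.42 for Krt33a (adjusted p 0.00255), 4.40 for Krt34 (adjusted p 0.00255), 4.42 for Padi3 (adjusted p 0.00119), 3.27 for Krt35 (adjusted p 0.00237) and 2.21 for Msx2 (adjusted p 0.00869). These genes are given because they passed this test, so that both day 7 arrays lying above both day 2 arrays is no further support. The ethanol channel of Krt33a and Krt34 was not well above background on any array. Day 7 and the second slide cannot be told apart. No Hox gene passed this test, the lowest adjusted p being 0.820 for Hoxc13.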

How the results depend on the processing

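The number of arrays and the high floor of the Cy3 channel limit these results, and Hoxc13 and Hoxa4 rest on signals near background. Median centring in place of loess raised the median of all genes to 0.39, 0.27, 0.17 and 0.28 at day 2, day 4, day 7 and on the average, and limma then called 7, 6, 5 and 10 Hox genes. It reversed Hoxa7 (0.58 at day 2, 0.46 on the average), Hoxc9 (0.53 and 0.55), Hoxb7 (0.63 at day 2) and Hoxb6 (0.60 at day 2), values that hold that shift. The day 7 count of 1 became 0 on processed signals, and with scale normalization. A filter on both channels, which left 15 Hox genes and neither Hoxc13 nor Hoxa4, could give no call of them, and its counts were 0 at day 7 and 0 on the average, while the deposited ratios gave 4 there. With no filter on dim probes the Hoxa4 average reversed to -0.24 through its other probe. With the replicate block the counts at day 7 and for day 7 minus day 2 in the cyclosporin A channel became 0, the latter from 1. Leaving out 1 array gave counts of 0 to 1 at day 7, 0 to 3 on the average, 0 to 1 for the cyclosporin A channel at day 7 minus day 2, and 0 elsewhere. Where no other cause is named, the cause was not tested. Offset 10 and negative controls as background (chosen after seeing the data) kept the Hoxc13 calls. The slide as a random block had an estimated correlation of 0 and changed no value. This could not test the slide, since each day lies on 1 slide and the fit has 1 mean per day.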
